A study of Rattus norvegicus with 6 samples.

Results

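The SLC25 genes encode the mitochondrial solute carriers, and they were measured here in pancreas of control rats and of rats with acute pancreatitis (AP). Members were all array probes whose RefSeq transcript accession belongs to a gene named Slc25a followed by a number, a rule that uses no measured value. It found 36 genes with 1 probe each, among 24684 probes, and each probe had 1 spot on a scan. Of the 49 Slc25a genes in the current rat gene table, the other 13 were not analysed here. Per the labels, all rats were male and 6 weeks old, and the strain is not named. AP rats received 4% sodium taurocholate, a bile salt, at 1 mL/kg by retrograde injection into the pancreatic duct and were killed after 9 h. The labels do not say whether control rats had a sham operation or an injection of vehicle. RNA came from whole pancreas, so fewer cells of a type and less RNA per cell cannot be told apart in any value below.

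The 6 deposited scans, 3 per group, came from 4 arrays. The scan labelled control 3 repeats the array scanned as control 2, and AP 3 likewise repeats AP 2: single spots deviated from the mean of their probe in the same way (r = 0.993 and 0.992 across 1662 spots), against r of 0.199 to 0.741 in the other 13 pairs of scans. Scans of an array were averaged, which left n = 2 per group, and this number limits the precision of every value. The labels do not tie an array to an animal, so a p-value measures only the spread between these arrays, which may be technical. Each array lay in a slide position of its own, so position and group cannot be told apart. The 75th percentile of the signal was 140 to 147 on control scans and 70.1 to 77.7 on AP scans. Values below are log2 signals relative to that percentile of the array, so a level of 0 equals it, and that percentile differed by a mean of -0.96 in log2, AP minus control. Of the neutrophil markers, 3 of 5 tested were lower on the arrays labelled AP and 1 was higher. S100a8, a calcium-binding protein abundant in neutrophils, was at least 90.7-fold lower there with this processing. Of the macrophage markers, 2 of 8 tested were lower, 2 were higher and 4 did not pass the threshold (median 0.26). Of all named genes tested, 31.9% were lower and 24.1% higher, so the macrophage counts are near the background. Cd14, a receptor for bacterial lipopolysaccharide, was 7.77-fold lower. Marco, a scavenger receptor, was at least 9.13-fold higher with this processing. All directions follow the deposited labels.

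SLC25 proteins sit mostly in the inner mitochondrial membrane, where they exchange nucleotides, phosphate, carboxylates, amino acids and cofactors between the cytosol and the matrix. ADP/ATP and phosphate carriers supply oxidative phosphorylation, the citrate carrier exports carbon for fatty acid synthesis, and the carnitine carrier brings in fatty acids for oxidation. In the pancreas, acinar cells need mitochondrial ATP for the synthesis and secretion of digestive enzymes, and mitochondrial failure is a known feature of bile acid injury to these cells.

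Most carrier genes that passed the test were lower on the arrays labelled AP. Of the 26 genes bright enough to test, 13 were lower, 3 were higher and 10 did not pass the threshold, an adjusted p below 0.05 in limma over 13217 probes. Of the 26, 2 entered the test through the control scans only: Slc25a35, counted as lower, and Slc25a2, not past the threshold. Among the 22 carriers well above background on all scans, 11 were lower and 3 higher, against 32.8% and 30.5% of named genes under that filter. The background was broad: 28.2% of all probes tested were lower and 26.9% were higher, and of 8732 named genes 31.9% were lower and 24.1% higher. The carriers' shares were 50% lower and 11.5% higher. In either direction 61.5% of the carriers changed, against 55.1% of probes and 56.0% of named genes, which is near the background. The arrays of the groups did not overlap for 23 of the 26 carriers (88.5%), against 79.5% of all probes and 79.9% of named genes. The median log2 fold change of the carriers was -0.55, against -0.03 for named genes, and 19 of 26 lay below 0, against 46.6% of probes and 51.3% of named genes. Nothing particular to the family was tested from these shares.

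The scaling sets the sign of small changes. Without it all 26 carriers were lower on the AP arrays, 22 past the threshold and 0 higher, and the median was -1.51 against -0.99 for named genes. The scaling moves both medians by the same amount, so the distance between them, -0.52, does not depend on it. It was -0.31 with normexp background correction and the same scaling, and -0.18 with normexp and quantile normalization. With normexp background correction before the same scaling, Slc25a10 (adjusted p = 0.0531), Slc25a16 (0.249), Slc25a33 (0.913), Slc25a44 (0.502) and the 3 higher genes did not pass the threshold. Each change below is therefore stated against the scaled array, not as an absolute amount of RNA.

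**Figure D1:**
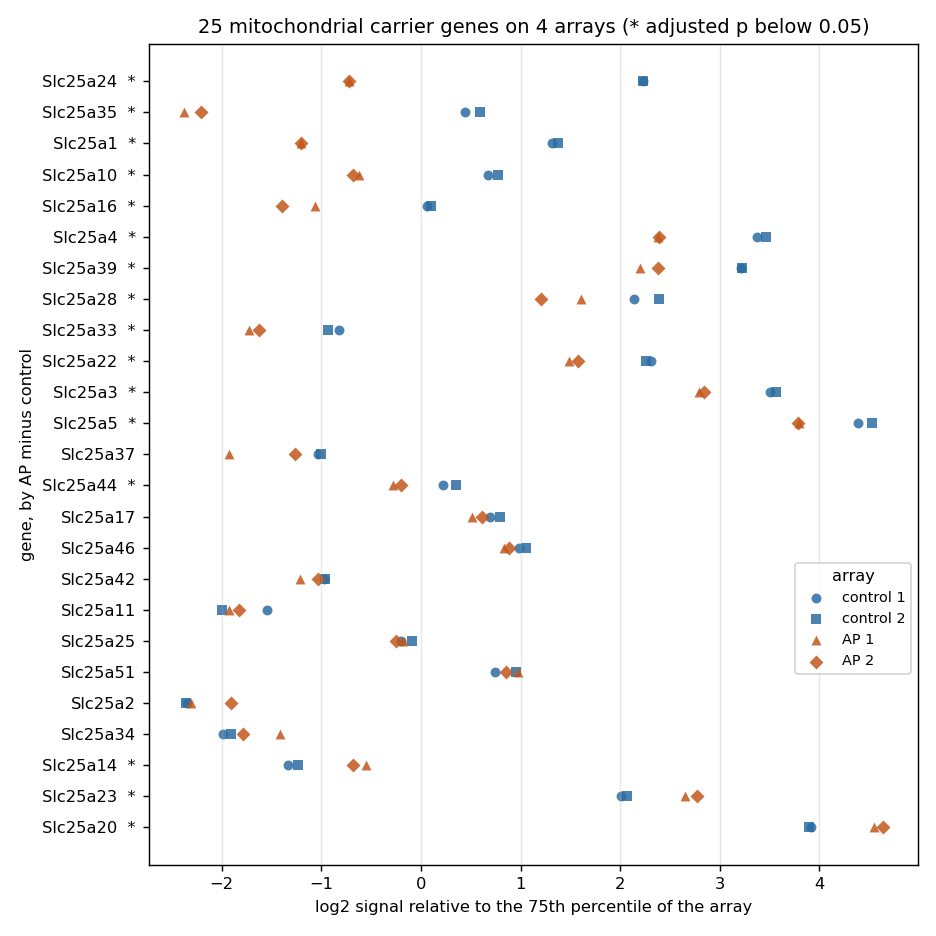
Log2 signal relative to the 75th percentile of the array for 25 of the 26 tested carrier genes on each of 4 arrays, 2 control and 2 AP. An asterisk marks genes with an adjusted p below 0.05. Of the 25 genes shown, 22 have no overlap between the groups, as have 79.9% of all named genes tested.

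**Figure D2:**
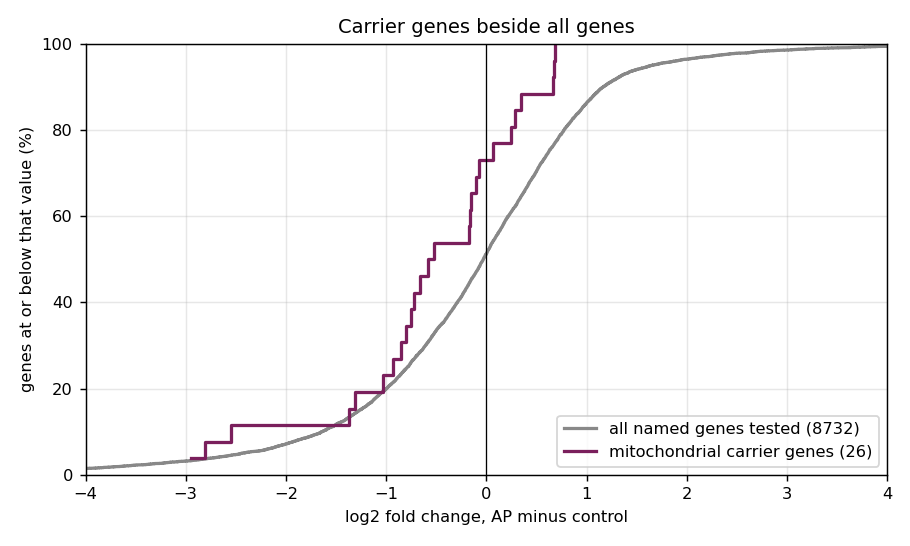
Cumulative share of genes (percent, vertical axis) at or below each log2 fold change (AP minus control, horizontal axis) for 8732 named genes and the 26 carriers. The carriers' median is -0.55 and that of all named genes is -0.03.

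Spread between the arrays of a group was small for most carriers. The median absolute difference between the 2 arrays was 0.08 for control and 0.10 for AP, against 0.15 and 0.16 over all probes tested. The widest gaps were 0.45 for Slc25a11 between the control arrays and 0.66 for Slc25a37 between the AP arrays. Rescans of an array differed by at most 0.21 in control and 0.40 in AP, both for Slc25a33.

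The promoters of the 3 carriers with the largest decrease and of the carrier with the largest increase, both with the main scaling, are shown for their letters. These promoters were chosen after the values were seen, as were the motifs. They are the RefSeq sequences around the gene start, 300 bases each, on build GRCr8, and 32 of the 36 members had one. Capitals mark the GC box with the letters GGGCGG, the box named by its letters CCAAT, and the sterol response element core with the letters CACNCCAC, each on either strand. In Slc25a1 a sterol core and a GC box overlap.
Slc25a24 promoter, chr2:199449175-199449474, plus strand: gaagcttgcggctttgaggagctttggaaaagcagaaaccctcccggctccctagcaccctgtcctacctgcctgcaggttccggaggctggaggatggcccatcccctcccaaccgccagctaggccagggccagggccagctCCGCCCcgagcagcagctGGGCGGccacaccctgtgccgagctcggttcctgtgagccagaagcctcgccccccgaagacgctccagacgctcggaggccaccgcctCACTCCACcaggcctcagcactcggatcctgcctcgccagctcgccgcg
Slc25a35 promoter, chr10:54172115-54172414, plus strand: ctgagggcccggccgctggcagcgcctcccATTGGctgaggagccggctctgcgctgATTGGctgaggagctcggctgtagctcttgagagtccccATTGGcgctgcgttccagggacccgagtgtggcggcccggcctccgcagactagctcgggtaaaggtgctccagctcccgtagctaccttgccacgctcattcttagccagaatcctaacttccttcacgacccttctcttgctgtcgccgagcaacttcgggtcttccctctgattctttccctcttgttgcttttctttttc
Slc25a1 promoter, chr11:96559804-96560103, plus strand: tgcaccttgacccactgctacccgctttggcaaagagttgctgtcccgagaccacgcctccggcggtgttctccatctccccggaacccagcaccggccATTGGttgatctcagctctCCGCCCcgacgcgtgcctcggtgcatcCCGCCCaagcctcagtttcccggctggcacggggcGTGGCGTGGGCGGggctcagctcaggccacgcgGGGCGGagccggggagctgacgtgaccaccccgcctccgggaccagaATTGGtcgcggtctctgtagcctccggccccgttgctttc
Slc25a20 promoter, chr8:118243323-118243622, plus strand: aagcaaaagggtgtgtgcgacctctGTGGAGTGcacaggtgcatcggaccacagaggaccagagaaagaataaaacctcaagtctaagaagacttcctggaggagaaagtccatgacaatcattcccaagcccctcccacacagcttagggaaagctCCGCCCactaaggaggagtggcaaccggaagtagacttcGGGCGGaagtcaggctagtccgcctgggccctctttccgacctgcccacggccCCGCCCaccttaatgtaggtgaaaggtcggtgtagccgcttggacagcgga

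GC boxes, the sites of Sp1-like factors, were in 23 of the 32 member promoters, in 56.9% of promoters of genes tested and in 33.1% of all 33469. CCAAT boxes were in 19 of 32, against 38.4% of genes tested and 37.5% of all. The sterol core was in 4 of 32, against 5.56% and 5.8%. It was in 2 of the 13 lower and 1 of the 3 higher genes, so it appeared in carriers that moved either way. The core of the NRF1 site (GCATGCGC) was in 0 of 32, against 4.55% of genes tested. The estrogen-related receptor site (AAGGTCA) was in 1, against 3.2%, the E-box (CACGTG) in 3, against 8.72%, the cyclic AMP response element (TGACGTCA) in 2, against 3.12%, and the TATA box (TATAAA) in 1, against 9.56%. Both strands were searched. Median GC content was 60.33% in members, 59.67% in genes tested and 51.67% in all promoters. A match is a description of these letters only.

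Of the carriers of adenine nucleotides and phosphate, 4 of 6 tested genes were lower, 1 was higher and 1 did not pass the threshold. Over all named genes, 31.9% were lower and 24.1% higher. The median log2 fold change of these carriers was -0.69. Slc25a24, a calcium-regulated carrier that exchanges ATP-Mg for phosphate, had the largest decrease of all carriers. Its level was 2.23 on both control arrays and -0.72 on both AP arrays. The decrease was 7.72-fold (-2.95 ± 0.09 in log2, adjusted p = 0.000687), and the groups lay far apart; here and below the error is the SE of the fit with n = 2 arrays in a group. Slc25a23, a close relative of the same carrier, moved the other way, with 2.00 and 2.07 on control arrays and 2.65 and 2.77 on AP arrays. It was 1.60-fold higher (0.67 ± 0.10, adjusted p = 0.0110). Within an array, where scaling does not enter, Slc25a23 relative to Slc25a24 shifted by 3.62 in log2 between the groups. Background correction still enters such a ratio. With normexp and the same scaling, the log2 fold changes lay closer together, at 0.20 for Slc25a23 and -1.81 for Slc25a24. Slc25a25, the third calcium-regulated carrier, did not pass the threshold: its levels were -0.20 and -0.09 on control arrays and -0.18 and -0.25 on AP arrays, which overlap (-0.07 ± 0.10, adjusted p = 0.605).

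The ADP/ATP carriers, the most abundant proteins of the inner membrane, were lower in both genes measured. Slc25a4 stood at 3.38 and 3.46 on control arrays and 2.38 and 2.39 on AP arrays, 2.05-fold lower (-1.03 ± 0.10, adjusted p = 0.00367). Slc25a5 stood at 4.39 and 4.53, and at 3.80 and 3.78 (-0.67 ± 0.10, adjusted p = 0.0112). Slc25a4 relative to Slc25a5 shifted by -0.37 within arrays. Slc25a5 did not pass without control 2 (adjusted p = 0.057), AP 1 (0.05) or AP 2 (0.054). Slc25a3, the phosphate carrier that supplies ATP synthase, had 3.51 and 3.57 on control arrays and 2.80 and 2.84 on AP arrays, 1.65-fold lower (-0.72 ± 0.09, adjusted p = 0.00762).

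Of the carriers of di- and tricarboxylates, 3 of 5 tested genes were lower (median -1.37), against 31.9% of named genes. Slc25a35, whose substrate is not settled, had 0.44 and 0.59 on control arrays and -2.38 and -2.20 on AP arrays. It was not well above background on any AP scan. With this processing it was at least 7.01-fold lower (fitted log2 fold change -2.81 ± 0.12, adjusted p = 0.000976), a bound equal to the fitted fold. Over the settings tried its log2 fold change ranged from -3.77 to -0.78, so the bound does not hold in all of them. The bound takes the gene's own AP signal, or the dimmest probe that counts as well above background where that is brighter. Slc25a1, the citrate carrier, had 1.32 and 1.37 on control arrays and -1.20 and -1.20 on AP arrays, 5.84-fold lower (-2.55 ± 0.09, adjusted p = 0.000758). Slc25a10, the dicarboxylate carrier that exchanges malate or succinate for phosphate, had 0.67 and 0.77, and -0.62 and -0.68, which made it 2.59-fold lower (-1.37 ± 0.10, adjusted p = 0.00234). Neither Slc25a11, the oxoglutarate carrier (-0.11), nor Slc25a34 (0.35) passed the threshold; the arrays of Slc25a11 overlap. Slc25a10 relative to Slc25a11 shifted by -1.26 within arrays. The 5 ratios of carriers computed were picked after the values were seen, and an exact two-sided permutation test of 2 against 2 arrays cannot go below p = 0.333.

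Acly, the enzyme that cleaves the exported citrate in the cytosol, was lower with the citrate carrier: 6.27 and 6.34 on control arrays and 2.07 and 2.00 on AP arrays, 19.3-fold. Me1, malic enzyme of the cytosol, was at least 82.8-fold lower with this processing, and Gpd1, glycerol-3-phosphate dehydrogenase, was 22.6-fold lower. All 3 are also abundant in adipose tissue. The adipocyte markers moved in the same direction: 8 of 10 measured and tested were lower, against 31.9% of named genes. Their summed level is the sum of unlogged signals, each relative to the 75th percentile. It was 465 and 468 on control arrays and 17.8 and 17.6 on AP arrays. None of the 10 was at background on every scan of a group, though Lpl had -1.65 on AP 1 and -4.18 on AP 2. The part of the adipocyte markers in the carrier values was not tested.

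Of the carriers of amino acids, carnitine and glutathione, 3 of 5 tested genes were lower and 1 was higher (median -0.53). The shares of named genes were 31.9% and 24.1%. Slc25a39, which takes up glutathione into mitochondria, had 3.21 and 3.23 on control arrays and 2.20 and 2.38 on AP arrays, 1.91-fold lower (-0.93 ± 0.11, adjusted p = 0.00611). Slc25a22, a glutamate carrier, had 2.31 and 2.26, and 1.49 and 1.58 (-0.75 ± 0.10, adjusted p = 0.00745). Slc25a44, a carrier of branched-chain amino acids, was 1.44-fold lower (-0.53 ± 0.11, adjusted p = 0.0224), but it lost the call without any 1 of the 4 arrays (adjusted p = 0.0585 to 0.0948). Slc25a20, the carnitine/acylcarnitine carrier of fatty acid oxidation, had the largest increase with this scaling. Slc25a23 and Slc25a14 (both 0.67) lay within its SE. With quantile normalization Slc25a23 was ahead, at 0.85 against 0.65. Slc25a20 had 3.92 and 3.90 on control arrays and 4.55 and 4.64 on AP arrays, 1.61-fold higher (0.69 ± 0.10, adjusted p = 0.00881). Without control 2 its adjusted p was 0.0531. Slc25a20 relative to Slc25a1 shifted by 3.23 within arrays. With normexp and the same scaling, their log2 fold changes lay closer together, at 0.29 for Slc25a20 and -1.35 for Slc25a1. Of the enzymes on either side of the carnitine carrier, Cpt2, in the inner membrane, was lower (-1.70), as was Crat, carnitine acetyltransferase (-1.10). Of the outer membrane enzymes of this step, Cpt1b was lower (-0.92) and Cpt1a did not pass the threshold (0.25). Slc25a2, an ornithine carrier, was not well above background on any AP scan and did not pass (0.25).

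Of the carriers of cofactors, nucleotides and iron, 3 of 8 genes were lower and 5 did not pass the threshold (median -0.38). This is near the share of named genes that were lower, 31.9%. Slc25a16, linked to coenzyme A supply, had 0.07 and 0.10 on control arrays and -1.06 and -1.40 on AP arrays, 2.49-fold lower (-1.31 ± 0.15, adjusted p = 0.00596). Slc25a28, the mitoferrin of non-erythroid cells, had 2.14 and 2.39, and 1.61 and 1.21 (-0.85 ± 0.19, adjusted p = 0.0292); the call was lost without control 1 (0.0746), control 2 (0.127) or AP 2 (0.0812). The Slc25a28 call was also lost with the authors' normalized values, with no filter on dim probes and with the replicate number as a block. Slc25a33, a pyrimidine nucleotide carrier, was 1.74-fold lower (-0.80 ± 0.11, adjusted p = 0.00767). It was not well above background on scan AP 3, and with normexp and the same scaling its log2 fold change was -0.04. Slc25a37, the mitoferrin of erythroid cells, had -1.03 and -0.999 on control arrays and -1.93 and -1.26 on AP arrays. It did not pass (-0.58 ± 0.26, adjusted p = 0.140), although without AP 2 it did (-0.91, adjusted p = 0.028). Slc25a37 relative to Slc25a28 was -3.17 and -3.38 on control arrays and -3.53 and -2.47 on AP arrays. The AP arrays lie on either side of the controls, so the mean shift of 0.27 rests on AP 2. Erythroid markers were lower in 5 of 5 tested genes, with a summed level of 637 and 735 on control arrays and 28.8 and 29.6 on AP arrays, and their part in these values was not tested. Slc25a17 (-0.18), Slc25a42 (-0.15) and Slc25a51 (0.07), carriers of cofactors, did not pass; the arrays of Slc25a51 overlap.

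Of the uncoupling-protein-like and other carriers, 1 of 2 tested genes was higher, against 24.1% of named genes. Slc25a14, an uncoupling-protein-like carrier, had -1.33 and -1.23 on control arrays and -0.55 and -0.68 on AP arrays, 1.59-fold higher (0.67 ± 0.11, adjusted p = 0.0127). The call was lost without control 1 (0.0627), control 2 (0.0544) or AP 1 (0.0542). The Slc25a14 call was also lost with normexp and quantile normalization and with the replicate number as a block. Slc25a46, an outer membrane protein of mitochondrial dynamics, had 0.98 and 1.06, and 0.83 and 0.89, and did not pass (-0.16 ± 0.10, adjusted p = 0.229). Slc25a23, the third higher gene, lost its call without control 1 (0.0574), control 2 (0.0536) or AP 2 (0.0508). None of the 3 higher genes was higher without scaling: Slc25a20 had -0.27, Slc25a23 -0.28 and Slc25a14 -0.29, and none passed the threshold there (adjusted p = 0.0966, 0.0824 and 0.139).

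**Figure D3:**
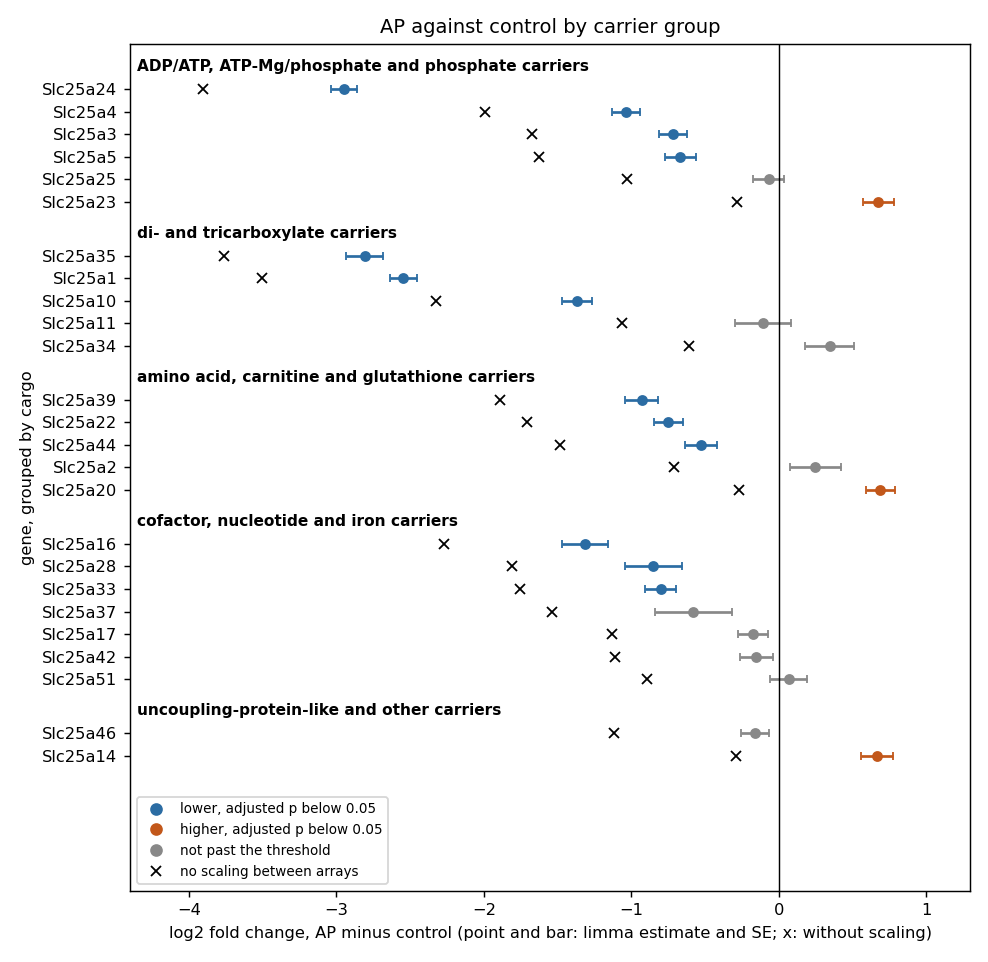
Log2 fold change (AP minus control) with its SE for 25 of the 26 tested carriers by role, colours marking the direction of genes past the threshold, and crosses the fold change without scaling between arrays. The 3 higher genes lie above 0 with scaling and below 0 without it.

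The 10 carriers under the filter were at background on most scans: 6 on every scan and 4 on all but 1. In the ADP/ATP group this was Slc25a41, in the carboxylate group Slc25a21, and in the amino acid group Slc25a15, Slc25a18, Slc25a29, Slc25a38 and Slc25a47. The group of uncoupling-protein-like and other carriers had Slc25a27, Slc25a30 and Slc25a54. No fold is given for these genes.

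Other mitochondrial genes were counted from lists chosen with earlier results of these data known. Beside these counts, 31.9% of all named genes were lower and 24.1% higher. Of the protein import machinery, 12 of 17 tested genes were lower and 3 higher (median -0.63), including the outer membrane receptors Tomm20 (-1.59) and Tomm70 (-1.50). Outer membrane channels were lower in 3 of 4: Tspo (-3.07), Vdac3 (-0.81) and Vdac2 (-0.67). Of the other inner membrane carriers and channels, 3 of 9 were lower and 6 did not pass: Mpc2, a subunit of the pyruvate carrier (-2.09), Sfxn3 (-1.44) and Ghitm (-0.83). Of enzymes that use carried substrates, 12 of 23 were lower and 2 higher (Shmt2 0.98 and Mthfd2 1.06, both of one-carbon metabolism). Of the SLC25 proteins under other symbols, Ucp2, an uncoupling protein, was higher (1.03), Mtch2 lower (-2.18) and Mtch1 not past the threshold (0.19). Of the biogenesis factors 2 of 8 were lower, including Esrra (-1.32), a nuclear receptor of mitochondrial genes, and 1 was higher, Tfb2m (1.04).

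**Figure D4:**
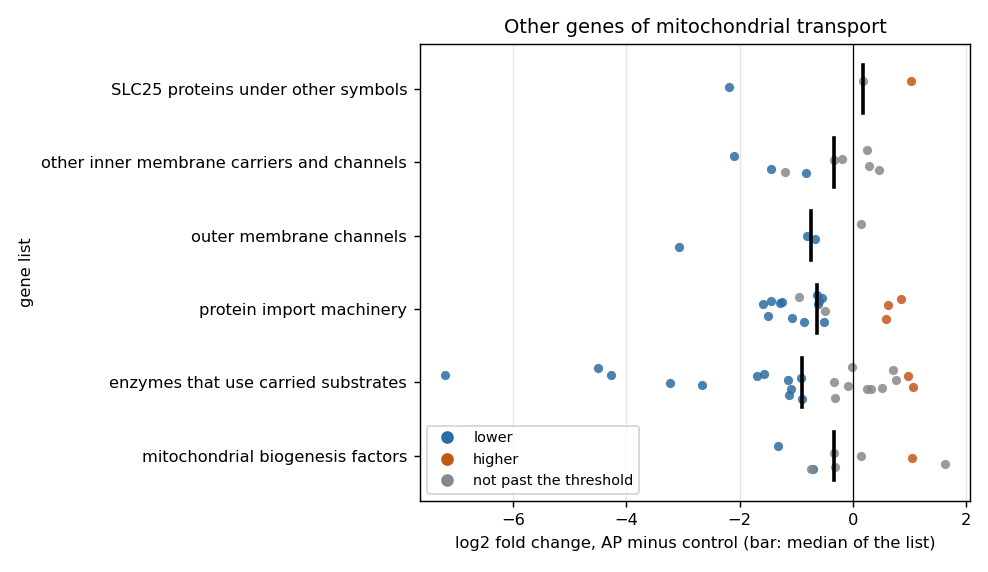
Log2 fold changes (AP minus control) of tested genes in 6 other mitochondrial lists, each point a gene and each bar the median of its list, with colours for the direction past the threshold. The medians range from -0.90 for enzymes to 0.19 for SLC25 proteins under other symbols.

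Of the markers of acinar cells, which make up most of the pancreas, 13 of 15 on the array were measured in both groups. Rbpjl and Ptf1a were at background in both. Of the 13, 8 were higher on the AP arrays and 5 did not pass the threshold. Beside this and the counts below, 31.9% of all named genes were lower and 24.1% higher. Mean levels of the 13 on control arrays ran from -2.10 (Bhlha15) to 3.99 (Cela2a). The erythroid marker Hbb had 9.38 there and the adipocyte marker Fabp4 7.65. The summed level of the acinar markers was 69.0 and 68.1 on control arrays and 94.6 and 85.5 on AP arrays. On control arrays this was below the summed levels of the adipocyte and erythroid markers given above. The lists hold different genes, so their sums do not give shares of cell types. Lymphocyte markers were higher in 9 of 9 tested genes, with a summed level of 6.35 and 5.91 on control arrays and 48.9 and 53.3 on AP arrays. Fibroblast and stellate cell markers were lower in 6 of 7 tested genes (median -1.75), with a summed level of 226.7 and 95.2 on control arrays and 33.5 and 28.1 on AP arrays; Dcn and Sparc each had a value on only 1 control array, which these sums reflect. Duct cell markers were lower in 3 of 5 (median -1.59; summed level 19.2 and 19.3, against 6.06 and 5.94) and islet cell markers in 2 of 4 (median -0.85; 8.47 and 10.2, against 3.66 and 4.43). Of the 3 skeletal muscle markers tested, all 3 did not pass the threshold. The part of the cell types in the carrier values was not tested.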

How the data were processed

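Agilent Feature Extraction 11.0.1.1 read the arrays, per the submitters' processing notes. The deposited scanner files give each spot's intensity after background subtraction and detrending, with no scaling between arrays; the array design is annotated on rn4, per the file headers. The authors also deposited a normalized log2 table; its tool is not given in the sources used.

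Control probes and marked spots were left out. Log2 signals were set relative to the 75th percentile, scans of 1 array (r above 0.9) averaged, and probes kept if 3 or more of 6 scans had them well above background (13222, of which 5 had no fit). limma 3.58.1 in R 4.3.3 compared 2 arrays with 2, with 2 residual degrees of freedom and Benjamini-Hochberg adjustment over 13217 probes; the procedure was tested on simulated data. The planned normexp correction on the mean signal used the median signal, which is what the files hold. Values per array are given for members past the threshold with a log2 fold change above 1 in size, for the 2 largest changes of each role and for 8 fixed genes; of each other list up to 4 genes with the largest changes past the threshold are named, and genes named beyond this were chosen after their values were seen. Members and lists were chosen with earlier results of these data known. 17 alternatives were tried as planned and 1 added later. The values of 1 tested member are not reported here; counts and medians include it.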

Additional observations from a re-analysis of the deposited data

Results flagged for a closer look

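Slc25a54 and Slc25a29 were under the filter but well above background on 1 scan, AP 1; their values entered only the alternative with no filter on dim probes. Slc25a54 had a log2 signal of 0.9632 there, against -5.50 and -5.31 on the control arrays and -4.30 on AP 2. Slc25a29 had -1.364, against -3.06 and -3.74 on the control arrays and -3.03 on AP 2. Each value is that of a single spot on a single scan.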

How the results depend on the processing

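Counts are given as carriers higher and lower, against 3 and 13. Without scaling they were 0 and 22, and the median log2 fold change was -1.51 instead of -0.55; of the genes reported, the direction turned for Slc25a14 (-0.29), Slc25a2 (-0.71), Slc25a20 (-0.27), Slc25a23 (-0.28), Slc25a34 (-0.61) and Slc25a51 (-0.89), since the scaling adds the same shift to every gene. Normexp background correction with the 75th percentile gave 0 and 9 (median -0.19), and with quantile normalization 2 and 13 (median -0.19); the median relative to that of named genes was -0.31 and -0.18, against -0.52, and the cause was not tested. With no filter on dim probes 36 genes gave 6 and 12 (median -0.17). Leaving out 1 array gave 0 to 2 higher, 10 to 11 lower and medians of -0.61 to -0.36; replicate 2 was left out with the second scan of its array. At an unadjusted p below 0.05 in limma, 0 carriers were higher without scaling, 0 with normexp and the 75th percentile, and 3 without control 2. The other alternatives stayed within 1.5 times both counts. The lower calls of Slc25a1, Slc25a3, Slc25a4, Slc25a22, Slc25a24, Slc25a35 and Slc25a39 held in every alternative that gave a value, and 9 other calls, the 3 higher ones included, were lost in at least 1. With the replicate number as a block the counts were 2 and 11, and with crossed numbers, added after seeing the data, 3 and 13; same-numbered arrays share only a number (correlation of deviations -0.21 across 13146 probes, 2 pairs). Signal over background limits the 10 genes under the filter, Slc25a35 and Slc25a2 on the AP arrays, and Slc25a33 and Slc25a11 on scan AP 3.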
